A study of Mus musculus with 8 samples.

Results

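The common γ chain (γc) cytokine receptors and the kinases attached to them were examined as a set of 10 genes: the shared chain *Il2rg*, the 7 chains that pair with it (*Il2ra*, *Il2rb*, *Il4ra*, *Il7r*, *Il9r*, *Il15ra* and *Il21r*), and the kinases *Jak1* and *Jak3*. They were found by gene name among 47493 genes, and all 10 were among the 12166 genes with a mean level of 1 or more FPKM (sequenced fragments scaled to the length of the transcript and the depth of the library) that were tested. The libraries came from 4 female C57BL/6 mice aged 6 to 8 weeks, each of which gave an IL-18Rα-hi-enriched library and a flow-through library. Every mouse carried B16F10 melanoma (200000 cells on day 0) and had received cyclophosphamide (300 mg/kg on day 3), Thy1.1-positive Pmel-1 CD8+ T cells (2000000 on day 5), recombinant human IL-2 (10000 IU daily for 3 days from day 5) and the CD4-depleting antibody GK1.5 (200 μg weekly for 3 weeks from day 10). On day 25, beads were used to purify the endogenous CD8+ T cells, which lack Thy1.1, out of inguinal lymph nodes and spleen. Cells held on a column by an antibody against IL-18Rα formed the enriched fraction, and cells that ran through formed the control, so both fractions shared every treatment and differed only in the selection.

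γc is a signaling chain that receptors for IL-2, IL-4, IL-7, IL-9, IL-15 and IL-21 have in common. JAK3 binds γc, and JAK1 binds the partner chain that signals with it, which in the IL-2 and IL-15 receptors is their shared β chain. The kinases activate STAT transcription factors. In CD8+ T cells, IL-7 is known for the survival of resting cells, IL-15 for memory cells and IL-2 for the growth of activated cells.

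The libraries were first checked for the selected receptor and for cell identity. *Il18r1*, which encodes IL-18Rα, was at 30.6 ± 6.96 FPKM (mean ± SD, n = 4) in flow-through cells and 110.8 ± 3.87 FPKM after enrichment, with no overlap. The summed FPKM per library was 656715 to 711678, and the depth, estimated from the smallest FPKM steps, was 14200000 to 17800000 fragments. The geometric mean of 8 T-cell identity genes was 240.5 to 256 FPKM in the enriched libraries and 197.2 to 233.2 FPKM in flow-through libraries 2 to 4, but 123.5 FPKM in flow-through library 1, which stood apart. All 10 γc genes were at their lowest flow-through value in that library. Some values are also given without it, or with each library divided by its T-cell identity mean (T-cell scaling). In the unscaled fit over all genes, 1 of the 8 identity genes was itself higher in the enriched fraction and 0 were lower (14.1% and 13.7% of all genes). Their ratios of means, enriched over flow-through, nevertheless ran from 1.06 to 1.49. Several of them, and their geometric mean, were higher in every enriched library than in every flow-through library (16.4% of all genes were). The scaling would also take out any true difference in these genes. In bulk RNA, fewer cells that express a gene and less RNA per cell cannot be told apart.

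Markers of other cell types were counted in the same fit, in which 14.1% of all genes tested were higher and 13.7% lower. Of the CD4 and regulatory T-cell markers, 4 of 5 were higher in the enriched fraction, and their summed FPKM was 14.1 to 33.8 in flow-through cells and 44.8 to 94.6 after enrichment. Of the NK-cell markers, 5 of the 6 tested were higher, with a summed FPKM of 40.1 to 101.3 against 100.6 to 227.5. Among myeloid markers 5 of 8 were higher (summed 117.3 to 414.2 against 376.5 to 917.6 FPKM), and among mast-cell and basophil markers 1 of 5 was higher and 1 lower (57.5 to 156.3 against 127.3 to 278.7 FPKM). Of the γδ T-cell markers 1 of 5 was higher (65.2 to 93.6 against 83.6 to 180 FPKM), as was 1 of the 6 B-cell markers tested (25.4 to 66.3 against 41.9 to 86.9 FPKM). None of the 6 erythroid markers passed (216.7 to 1121 against 122.3 to 1189 FPKM), both highest sums being those of mouse 1, and 4 of 5 melanoma markers were listed at 0 in every library. No marker of the other lists was at 0 throughout. With the mouse as a block, which pairs the fractions of a mouse, 4 of 5 γδ, 2 of 6 B-cell, 7 of 8 myeloid and 3 of 5 mast-cell and basophil markers were higher and 3 of 6 erythroid markers lower, where the shares of all genes were 22.2% and 22.7%. The part of these cells in the γc values was not tested.

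Start-site sequence was taken from the RefSeq promoter table (GRCm38.p6), in which 9 of the 10 genes had an entry (*Il2rb* had none). The 250 bases before the start are shown for *Il2ra* and *Il9r*, which changed between the fractions, and for *Il21r*, whose window held a FOXO match. They are printed 5′ to 3′ on the gene's strand, with the motif match in capitals.
Il2ra (chr2:11642542-11642791, plus strand): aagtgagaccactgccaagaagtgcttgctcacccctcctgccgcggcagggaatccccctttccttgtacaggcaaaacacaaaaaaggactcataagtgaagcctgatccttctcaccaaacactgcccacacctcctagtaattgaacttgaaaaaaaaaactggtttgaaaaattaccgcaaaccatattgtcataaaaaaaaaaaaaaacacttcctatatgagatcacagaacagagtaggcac
Il9r (chr11:32200280-32200529, minus strand): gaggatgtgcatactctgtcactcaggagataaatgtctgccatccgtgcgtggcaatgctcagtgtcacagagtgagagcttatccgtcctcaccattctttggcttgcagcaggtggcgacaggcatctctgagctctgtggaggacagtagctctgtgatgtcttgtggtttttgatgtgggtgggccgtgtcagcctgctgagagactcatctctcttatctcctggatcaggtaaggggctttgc
Il21r (chr7:125603179-125603428, plus strand): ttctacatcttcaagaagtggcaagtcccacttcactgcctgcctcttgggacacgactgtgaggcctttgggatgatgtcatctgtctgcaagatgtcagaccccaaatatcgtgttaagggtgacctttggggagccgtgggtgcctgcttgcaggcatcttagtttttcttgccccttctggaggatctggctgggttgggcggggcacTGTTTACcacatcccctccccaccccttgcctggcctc
Both strands were searched for TTCNNNGAA (STAT), AGGTGTGA (T-box) and GTAAACA (FOXO) in windows from 250 bases before to 50 bases after each start. The capitals in the *Il21r* window mark the FOXO letters on the minus strand, from 38 to 32 bases before the start. This motif stood in 1 of the 9 genes, against 4.05% of all genes in the table. The STAT letters also stood in 1 gene, *Il7r* (142 to 134 bases before its start), against 9.55% of all genes. The T-box letters stood in none of the 9 genes and in 1.48% of all genes. The *Il2ra* and *Il9r* windows therefore held none of these letters.

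The largest change among the receptor genes was that of *Il2ra*, the IL-2 receptor α chain (CD25), which raises the affinity of the receptor for IL-2 (ENSMUSG00000026770; chromosome 2, 11642807 to 11693193, plus strand, in the mm10 build). It was at 1.37, 4.16, 3.98 and 4.78 FPKM in flow-through libraries 1 to 4 and at 9.94, 16.3, 15.7 and 20.6 FPKM in the enriched libraries of the same mice. Every enriched library lay above every flow-through library. The means were 3.57 ± 1.505 and 15.6 ± 4.36 FPKM, a ratio of 4.38, and the log2 change of FPKM + 1 was 1.90 ± 0.31 (SE; adjusted p = 0.0039 by limma). Without flow-through library 1 it was 1.61, and under T-cell scaling 1.62 (adjusted p = 0.0018 and 0.0048 by limma). Another annotated gene, *Gm37881*, overlaps *Il2ra* on the same strand, and the assignment of reads between them is uncertain. Regulatory T cells carry CD25 constitutively, and *Foxp3*, their defining transcription factor, rose from 2.62 ± 1.36 to 11.6 ± 5.48 FPKM. The ratio of *Il2ra* to *Foxp3*, chosen after the values were seen, was 1.41 ± 0.31 in flow-through cells and 1.44 ± 0.27 after enrichment. It ranged from 1.08 to 1.78 in the 8 libraries. *Cd4* was at 0.66 ± 0.42 and 3.93 ± 2.73 FPKM. The part of regulatory T cells in the *Il2ra* values was not tested.

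*Il2rb* encodes the β chain that the IL-2 and IL-15 receptors share (ENSMUSG00000068227; chromosome 15, 78479256 to 78495271, minus strand). Its flow-through values were 91.3, 157.2, 131.8 and 147.8 FPKM and its enriched values 340.2, 340.8, 328.6 and 320.4 FPKM. The fractions were widely apart, and the enriched libraries lay close together. The mean rose from 132 ± 29.1 to 332 ± 9.81 FPKM, 2.52 times, with a log2 change of 1.35 ± 0.16 (SE; adjusted p = 0.0012 by limma). T-cell scaling moved this to 0.99 and the fit without flow-through library 1 to 1.19, and it passed in both. NK cells are also rich in this chain, and *Ncr1*, an NK-cell receptor, was at 1.66 ± 0.93 and 16.8 ± 8.46 FPKM. Of the 6 NK-cell markers tested 5 were higher, and *Ncr1* had the largest ratio of means. *Fcer1g*, 1 of these 5, was at 49.0 ± 21.7 and 108 ± 38.9 FPKM, higher in 4 of 4 mice though its ranges overlapped. *Eomes*, the marker that did not pass, was at 13.5 ± 2.56 and 14.2 ± 0.55 FPKM with overlap. The part of NK cells in the *Il2rb* values was not tested.

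*Il9r*, the IL-9 receptor chain, was nearly level among the enriched libraries (ENSMUSG00000020279; chromosome 11, 32187541 to 32200279, minus strand). It was at 4.65, 8.10, 7.41 and 6.54 FPKM in flow-through cells and at 22.5, 21.3, 22.5 and 22.6 FPKM in the enriched libraries. The mean rose from 6.67 ± 1.49 to 22.2 ± 0.62 FPKM, 3.33 times, with no overlap. Its log2 change was 1.62 ± 0.14 (SE; adjusted p = 0.00038 by limma), and under T-cell scaling 1.29. The gene of its ligand, *Il9*, was listed at 0 FPKM in all 8 libraries. Mast cells are another known carrier of the IL-9 receptor. Among the mast-cell and basophil markers, *Mcpt8* was higher after enrichment (49.7 ± 26.6 and 132 ± 51.9 FPKM) and *Gata2* lower (18.3 ± 3.99 and 9.98 ± 2.60 FPKM). The others overlapped between the fractions. *Cpa3* averaged 19.1 and 27.3 FPKM, *Ms4a2* 5.62 and 6.02 FPKM, and *Fcer1a* 6.04 and 13.3 FPKM. Within mice, *Cpa3* and *Fcer1a* were higher after enrichment in 4 of 4 and *Ms4a2* in 3 of 4. The list pools mast cells and basophils, and which of them changed was not tested. The part of these cells in the *Il9r* values was not tested.

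**Figure D1:**
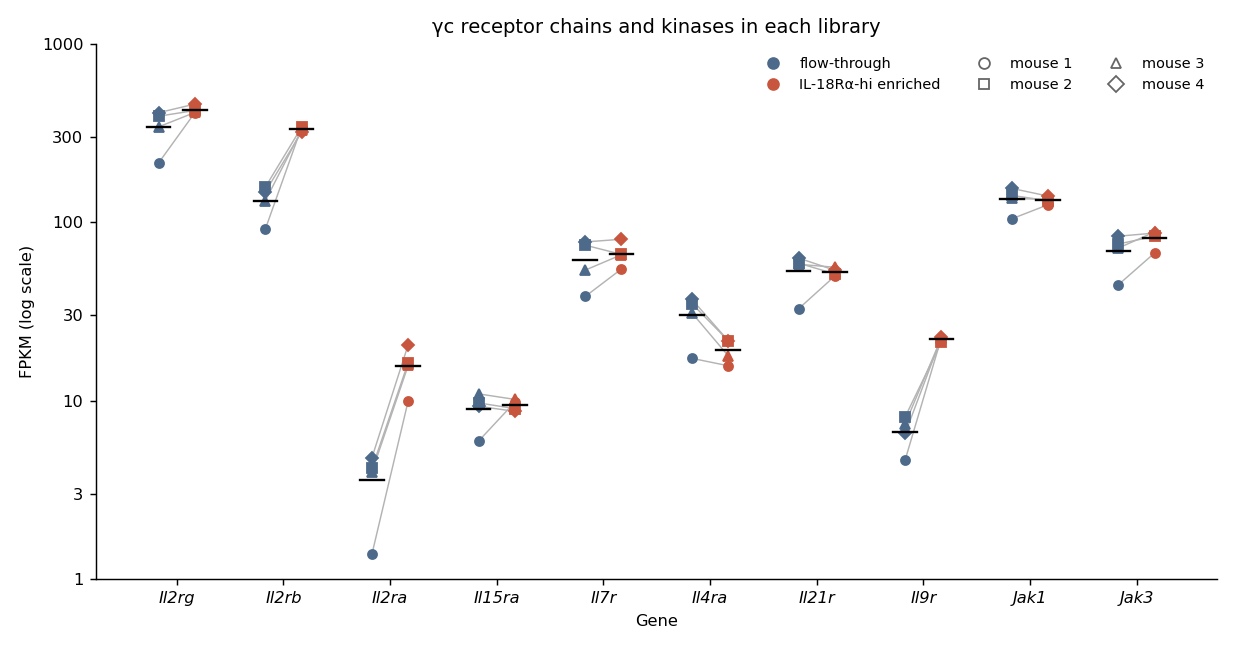
FPKM of the 10 genes (vertical axis, log scale) in each library, with flow-through in blue, IL-18Rα-hi enriched in red, grey lines joining the fractions of one mouse and black bars for the mean of 4 libraries. *Il2rb*, *Il2ra* and *Il9r* are the genes whose fractions do not overlap, and mouse 1 (circles) has the lowest flow-through value of every gene.

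The shared chain *Il2rg* was the highest of the set in both fractions (ENSMUSG00000031304; chromosome X, 101264378 to 101268255, minus strand). It was at 215.3, 393.4, 342.8 and 411.8 FPKM in flow-through cells and at 411.7, 423.6, 413.0 and 460.2 FPKM in the enriched libraries. The enriched libraries began where the flow-through values ended, with a slight overlap. The log2 change of 0.37 had a 95% interval of -0.07 to 0.80 and did not pass (adjusted p = 0.18 by limma). T-cell scaling brought it to 0.0025, and leaving out flow-through library 1 to 0.16. A predicted protein-coding gene, *Gm20489*, overlaps *Il2rg* on the same strand, and the assignment of reads between them is uncertain.

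*Il4ra*, the chain that binds IL-4, had a lower mean after enrichment (ENSMUSG00000030748; chromosome 7, 125552120 to 125579474, plus strand). Its values were 17.2, 35.0, 31.0 and 36.9 FPKM in flow-through cells and 15.7, 21.7, 17.8 and 21.7 FPKM after enrichment. It was lower in the enriched library of 4 of 4 mice, but flow-through library 1 fell among the enriched values. The means were 30.05 ± 8.88 and 19.2 ± 2.98 FPKM, with a log2 change of -0.58 (SE 0.23) that missed the threshold (adjusted p = 0.094 by limma). The libraries are paired by mouse, and with the mouse as a block the same change passed (adjusted p = 0.0084 by limma). It also passed without flow-through library 1 (log2 change -0.81, adjusted p = 0.0037 by limma) and under T-cell scaling (-0.92, adjusted p = 0.011 by limma). An antisense gene, *Gm44876*, overlaps *Il4ra*. Cufflinks was run with default options apart from its corrections, and its default takes no account of strand, so reads of the pair may not have been told apart.

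*Il7r*, the IL-7 receptor α chain and a marker of resting and memory T cells, differed little in its mean (ENSMUSG00000003882; chromosome 15, 9505788 to 9530176, minus strand). It was at 38.3, 74.4, 53.9 and 77.6 FPKM in flow-through cells and at 54.7, 66.0, 65.7 and 80.3 FPKM in the enriched libraries. The ranges lay over each other, and 3 of 4 mice had the higher value in the enriched library. The log2 change was 0.17 with a 95% interval of -0.34 to 0.67 (adjusted p = 0.60 by limma). Its sign was not stable, being -0.19 under T-cell scaling and -0.04 when flow-through library 1 was left out.

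*Il15ra*, which holds IL-15 for presentation to cells with the β and γ chains, was a low gene in both fractions (ENSMUSG00000023206; chromosome 2, 11705290 to 11734317, plus strand). Its flow-through values were 5.92, 9.70, 10.9 and 9.28 FPKM, and its enriched values 9.79, 9.01, 10.1 and 8.70 FPKM. The log2 change was 0.09 with a 95% interval of -0.28 to 0.46 (adjusted p = 0.70 by limma), and -0.23 under T-cell scaling. *Il2ra* is its neighbour on chromosome 2, with a gap of 12.1 kb between the genes. In each flow-through library *Il2ra* was below *Il15ra* (0.23 to 0.52 times its FPKM), and in each enriched library it was above it (1.02 to 2.36 times). Only the *Il2ra* side of that pair passed the test.

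*Il21r* encodes the IL-21 receptor chain (ENSMUSG00000030745; chromosome 7, 125603429 to 125633570, plus strand) and lies 24.0 kb from *Il4ra*. It was at 32.7, 59.0, 58.1 and 63.0 FPKM in flow-through cells and at 49.9, 51.3, 55.9 and 53.8 FPKM in the enriched libraries. Apart from flow-through library 1, every flow-through value was above every enriched value. The log2 change was 0.03 with a 95% interval of -0.41 to 0.47 (adjusted p = 0.92 by limma). T-cell scaling made it -0.33 and the fit lacking flow-through library 1 made it -0.18, and it passed in neither (adjusted p = 0.13 and 0.078 by limma). The level of *Il4ra* relative to *Il21r* was 0.56 ± 0.03 in flow-through cells and 0.36 ± 0.06 in the enriched libraries, without overlap.

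Neither kinase passed the test. *Jak1* (ENSMUSG00000028530; chromosome 4, 101152367 to 101265282, minus strand) was at 104.6, 141.4, 136.0 and 154.8 FPKM in flow-through cells and at 125.4, 132.2, 134.3 and 140.2 FPKM after enrichment. Its log2 change was 0.0008 with a 95% interval of -0.27 to 0.27 (adjusted p = 0.997 by limma), and -0.36 under T-cell scaling. *Jak3*, whose protein binds γc (ENSMUSG00000031805; chromosome 8, 71676296 to 71690575, plus strand), was at 44.7, 75.5, 71.7 and 83.5 FPKM in the flow-through. In the enriched libraries it was at 67.4, 83.5, 88.3 and 87.0 FPKM, higher in 4 of 4 mice but overlapping. Its log2 change was 0.27 with a 95% interval of -0.16 to 0.70 (adjusted p = 0.31 by limma), and -0.09 under T-cell scaling. *Raver2* overlaps *Jak1* and *Insl3* overlaps *Jak3*, so a part of either value may belong to the neighbour.

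Of the 10 genes, 3 were higher and 0 lower in the enriched fraction (adjusted p under 0.05 by limma). The shares of all genes at that threshold were 14.1% and 13.7%. At an unadjusted p under 0.05, limma gave 3 higher genes and 1 lower gene, *Il4ra*, and over all 12166 genes 2433 higher and 2594 lower. The same 3 genes were the ones with every enriched library above the flow-through, against 16.4% of all genes, and 0 had every enriched library below, against 15.9%. With the mouse as a block, 3 were higher and 1 lower, where the shares of all genes were 22.2% and 22.7%. Under T-cell scaling, 3 were higher and 1 lower against 4.09% and 9.02% of all genes. That scaling put the median over all genes at -0.35 on the log2 scale, and all of the 10 genes but *Il4ra* and *Jak1* lay above that median. The share of calls that were higher over all genes went from 50.8% to 31.2%.

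**Figure D2:**
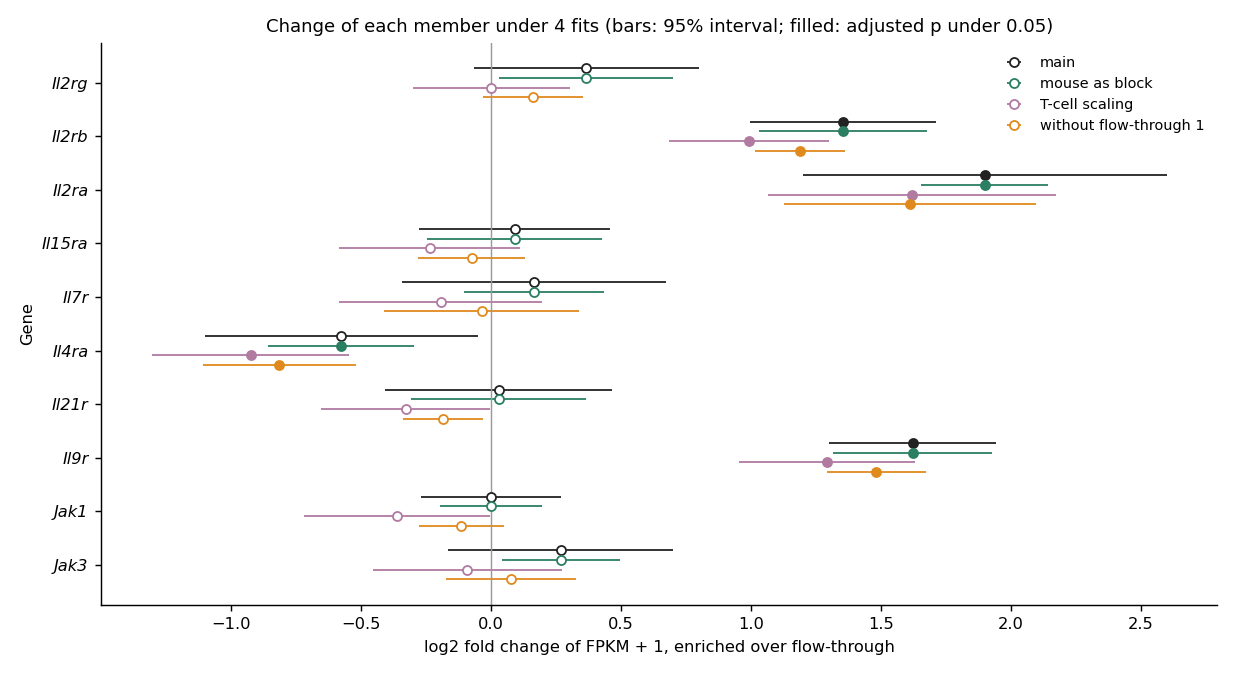
Log2 change of FPKM + 1 (horizontal axis, enriched over flow-through) of each gene, with 95% intervals as bars and filled points for an adjusted p under 0.05. The 4 fits are the main fit (all libraries, no block, no scaling), the mouse as a block, T-cell scaling, and flow-through library 1 left out. *Il2ra*, *Il2rb* and *Il9r* pass in all 4 fits, and *Il4ra* passes, as lower, in all but the main fit.

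To compare the transcript levels of the chains apart from the scaling of a library, each chain was expressed as a share of *Il2rg* in the same library. *Jak3* was expressed as a share of *Jak1*. FPKM is per length, so such ratios can be read as relative transcript levels in the bulk RNA of a fraction, whose mix of cells also enters them. The chain ratios share *Il2rg* as the denominator, so they are not independent, and any error in its reads enters all of them. With 4 libraries against 4, the smallest possible p of the exact two-sided permutation test is 0.0286, and adjustment over the 8 ratios makes that 0.0457 for the 5 ratios that reached it. That test does not pair the fractions of a mouse. The exact sign-flip test within mice gave p = 0.125 for each of these 5 ratios, the smallest value it can give.

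*Il2rb* stood at 39.2 ± 2.73% of *Il2rg* in flow-through cells and at 78.1 ± 5.77% in the enriched libraries. The flow-through ratios were 35.9% to 42.4% and the enriched ones 69.6% to 82.6%, so flow-through library 1 was no longer apart in this ratio. *Il2ra* went from 1.00 ± 0.25% to 3.64 ± 0.87% of *Il2rg*, with flow-through library 1 still low at 0.64% against 1.06% to 1.16% in the other flow-through libraries. *Il9r* went from 1.99 ± 0.27% to 5.22 ± 0.29% of *Il2rg*. These 3 ratios were higher in 4 of 4 mice (exact permutation p = 0.0286 each, adjusted 0.0457). On the log2 scale their differences were 0.99, 1.86 and 1.40.

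*Il4ra* and *Il21r* were lower in relation to *Il2rg*. *Il4ra* went from 8.73 ± 0.49% to 4.49 ± 0.56%, with the highest enriched ratio at 5.12% and the lowest flow-through ratio at 8.01%. *Il21r* went from 15.6 ± 0.90% to 12.4 ± 0.81%, the nearest values being 15.0% and 13.5%. Both were lower in 4 of 4 mice (exact permutation p = 0.0286 each, adjusted 0.0457), with log2 differences of -0.97 and -0.34. A ratio cannot say which of its genes moved: for *Il21r* neither gene passed the test by itself.

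The other ratios did not pass. *Il7r* stood at 17.8 ± 1.49% and 15.6 ± 1.72% of *Il2rg* (exact permutation p = 0.0857, adjusted 0.098). *Il15ra* stood at 2.66 ± 0.40% and 2.21 ± 0.26% (exact permutation p = 0.114, adjusted 0.114), lower in 4 of 4 mice with overlapping ranges. *Jak3* stood at 50.7 ± 5.34% and 61.2 ± 5.204% of *Jak1*, higher in 4 of 4 mice (exact permutation p = 0.0571, adjusted 0.0762), the lowest ratio being 42.7% in flow-through library 1.

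**Figure D3:**
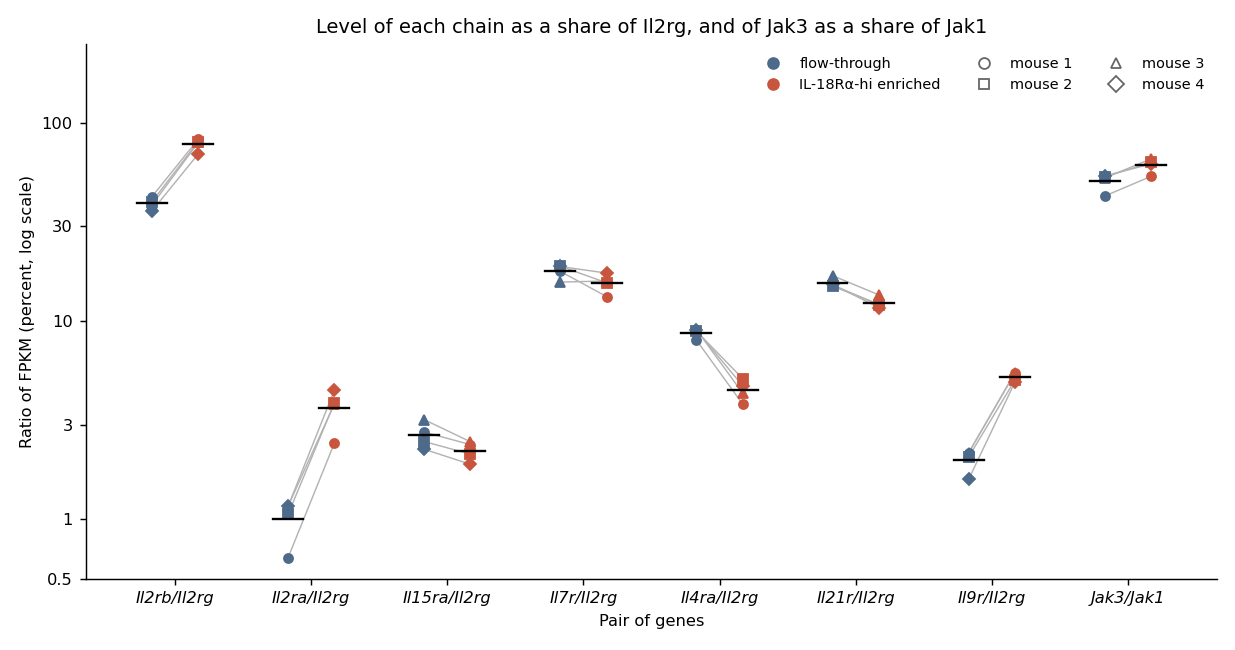
Ratio of FPKM of each receptor chain to *Il2rg*, and of *Jak3* to *Jak1*, in percent (vertical axis, log scale), in flow-through (blue) and enriched (red) libraries, with lines joining the fractions of one mouse and black bars for the means. *Il2rb*, *Il2ra* and *Il9r* take larger shares in all 4 enriched libraries, while *Il4ra* and *Il21r* take smaller ones.

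The order of the genes by FPKM differed between the fractions in a few places. In the flow-through *Il2rg* was highest, followed by *Jak1* and *Il2rb* at 134.2 ± 21.3 and 132 ± 29.1 FPKM, which did not differ beyond their spread. *Jak3*, *Il7r* and *Il21r* came next, at 68.9 ± 16.9, 61.0 ± 18.4 and 53.2 ± 13.8 FPKM with overlapping ranges, then *Il4ra*, *Il15ra* and *Il9r*, with *Il2ra* lowest. In the enriched fraction *Il2rb* was second and 2.51 ± 0.18 times as high as *Jak1* within a library. *Il9r* at 22.2 ± 0.62 FPKM and *Il4ra* at 19.2 ± 2.98 FPKM were neighbours with overlapping ranges, and *Il15ra* at 9.41 ± 0.67 FPKM was lowest. *Il2rg* was 1.29 ± 0.10 times as high as *Il2rb* there.

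Beyond the receptors, 39 other genes of the pathway were arranged in 7 lists, of which 36 genes were tested. In the enriched fraction 14 were higher and 2 lower, where 14.1% and 13.7% of all genes were. Leaving out enriched library 2, 3 or 4 brought the 14 to 8, 9 or 7, and leaving out flow-through library 1 brought the 2 to 6. T-cell scaling gave 3 higher and 5 lower genes (4.09% and 9.02% of all genes), and the mouse as a block 19 and 4 (22.2% and 22.7%).

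Among the 6 ligand genes, 3 were tested and 1 was higher. *Il2* was at 0.69, 0.70, 1.15 and 1.12 FPKM in flow-through cells and 4.43, 2.63, 2.23 and 2.24 FPKM in the enriched libraries, a log2 change of 1.00 ± 0.19 (SE; adjusted p = 0.0077 by limma) at a low level. *Il21* was under the level tested, at 0.29 to 0.59 and 1.20 to 1.83 FPKM without overlap. *Il4* averaged 1.13 and 1.09 FPKM, and *Il15* 0.90 and 1.49 FPKM with overlap.

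Both further partner chains were higher. *Crlf2*, the receptor chain for TSLP that resembles γc, rose from 23.7 ± 5.93 to 41.6 ± 2.45 FPKM (log2 change 0.82 ± 0.16 SE, adjusted p = 0.0082 by limma). *Il13ra1*, which pairs with the IL-4 receptor chain outside the γc receptor, rose from 1.16 ± 0.54 to 3.06 ± 1.00 FPKM (log2 change 0.91 ± 0.24 SE, adjusted p = 0.024 by limma). Neither call held under T-cell scaling, where the log2 changes were 0.46 and 0.72 (adjusted p = 0.081 and 0.052 by limma), though *Il13ra1* passed with the mouse as a block added (adjusted p = 0.014 by limma). That of *Il13ra1* was also lost without flow-through library 3 or enriched library 2, 3 or 4 (adjusted p = 0.052 to 0.069 by limma). Of the other kinases of the family, *Tyk2* (25.7 ± 2.04 to 33.7 ± 3.36 FPKM) and *Jak2* (28.2 ± 2.09 to 35.2 ± 1.58 FPKM) both rose slightly. Their log2 changes were 0.38 and 0.31 (adjusted p = 0.021 and 0.019 by limma), but 0.02 and -0.04 under T-cell scaling, which ended both calls. Leaving out flow-through library 3 or enriched library 2, 3 or 4 ended them too (adjusted p = 0.052 to 0.064 by limma).

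Among the STAT genes 0 of 5 were higher and 1 was lower. *Stat5a*, a main STAT of the IL-2, IL-7 and IL-15 receptors, fell from 36.6 ± 5.11 to 25.8 ± 0.62 FPKM with no overlap (log2 change -0.48 ± 0.10 SE, adjusted p = 0.0091 by limma). Under T-cell scaling it was at -0.83 and did not pass (adjusted p = 0.065 by limma) unless the mouse was added as a block (adjusted p = 0.018 by limma). Its close homologue *Stat5b* was at 35.8 ± 1.73 and 35.5 ± 1.18 FPKM. *Stat3* and *Stat6* did not pass in the main fit, with log2 changes of 0.30 and 0.11. When the fit paired the fractions by mouse, 1 of the 5 STAT genes was higher and 1 lower. Within mice, *Stat3* was higher after enrichment in 4 of 4 and *Stat6* in 3 of 4.

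Of the 7 feedback inhibitors, 3 were higher. *Cish*, which STAT5 induces and which dampens IL-2 signals, was at 4.49, 5.38, 6.41 and 6.97 FPKM in flow-through cells and 9.53, 14.9, 14.0 and 17.8 FPKM in the enriched libraries. Its log2 change was 1.13 ± 0.19 (SE; adjusted p = 0.0045 by limma), and the fractions did not overlap. *Socs2* rose from 1.94 ± 0.44 to 4.13 ± 0.92 FPKM and *Sh2b3*, which restrains JAK kinases, from 18.1 ± 2.65 to 25.3 ± 2.46 FPKM (log2 changes 0.80 and 0.47, adjusted p = 0.0091 and 0.021 by limma). Under T-cell scaling *Socs2* was at 0.52 and *Sh2b3* at 0.12, and neither passed (adjusted p = 0.14 and 0.60 by limma). *Sh2b3* also missed the threshold without flow-through library 3 or enriched library 2 or 4 (adjusted p = 0.061 to 0.064 by limma). *Socs3* was at 43.4 ± 14.4 and 28.2 ± 7.32 FPKM, and was lower with the mouse as a block (adjusted p = 0.0015 by limma) but not in the main fit (0.15). Of the feedback inhibitors, 1 was also lower without flow-through library 1 and under T-cell scaling, against 0 in the main fit.

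Of the 7 adaptors and kinases downstream, *Pik3r1*, a regulatory subunit of PI3K, and the adaptor *Grb2* were higher, with log2 changes of 0.42 and 0.29 (adjusted p = 0.014 and 0.037 by limma). Under T-cell scaling these were 0.06 and -0.07 and did not pass, and *Grb2* lost its call when any single library but flow-through library 2 was left out (adjusted p = 0.054 to 0.10 by limma). Among the 10 survival and growth targets 4 were higher and 1 lower. *Bcl2l1*, which encodes the survival protein Bcl-xL, rose from 14.0 ± 1.40 to 28.0 ± 0.54 FPKM (log2 change 0.96 ± 0.08 SE, adjusted p = 0.00036 by limma). It was 0.61 under T-cell scaling and passed there, but not with the mouse as a block added (adjusted p = 0.072 by limma). The cytokine genes *Lta* and *Osm* had log2 changes of 0.90 and 0.49 (adjusted p = 0.022 each by limma), and *Ccnd3* was the other higher gene. Under T-cell scaling *Lta* was at 0.59 and *Osm* at 0.15, and neither passed (adjusted p = 0.060 and 0.58 by limma). Without enriched library 4, and without library 3 for *Lta* or library 2 for *Osm*, their calls were lost as well (adjusted p = 0.054 to 0.065 by limma). *Myc*, a growth regulator that IL-2 can induce, fell from 102.5 ± 4.70 to 42.2 ± 3.88 FPKM (log2 change -1.26 ± 0.08 SE, adjusted p = 0.00020 by limma). *Bcl2*, a survival gene that IL-7 maintains, was at 18.05 ± 6.23 and 10.1 ± 1.99 FPKM. It was lower with the mouse as a block (adjusted p = 0.0065 by limma) and not in the main fit (0.068), as was the case for *Il4ra*. Without flow-through library 1, and also under T-cell scaling, 3 of the survival and growth targets were lower, against 1 in the main fit.

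The median log2 change was 0.22 over the 10 γc genes, 0.40 over the feedback inhibitors, 0.28 over the survival and growth targets, -0.01 over the STAT genes and -0.02 over all genes tested. Without flow-through library 1 these medians were 0.02, 0.19, 0.12, -0.03 and -0.03, in the same order. Under T-cell scaling they were -0.14, 0.06, -0.08, -0.37 and -0.35.

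**Figure D4:**
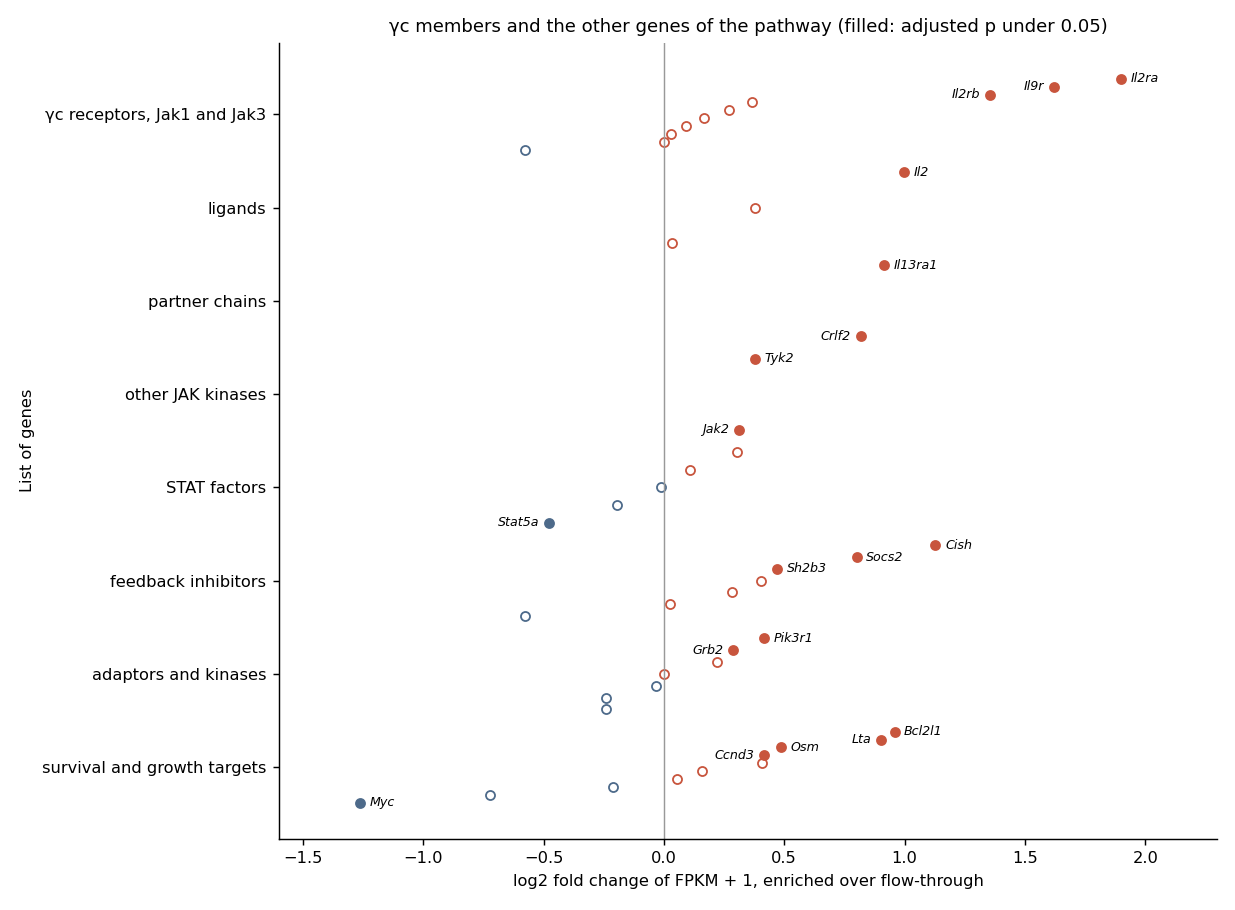
Log2 change of FPKM + 1 (horizontal axis, enriched over flow-through) of the γc genes and of the tested genes in 7 lists of the pathway, 1 point per gene, filled and named where the adjusted p is under 0.05. The 14 named pathway genes on the right include *Il2*, *Cish* and *Bcl2l1*, and the 2 on the left are *Stat5a* and *Myc*.

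The genes most like *Il2ra* over the 8 libraries were sought among 9328 genes that averaged 5 FPKM or more, by the Euclidean distance between log2(FPKM + 1) profiles centred on their means. They were *Klrk1* (distance 0.44), *Klrb1c* (0.47) and *Gzmb* (0.50), which encode the receptors NKG2D and NK1.1 and the protease granzyme B. *Klrk1* was at 14.0 and 55.1 FPKM, *Klrb1c* at 3.50 and 17.4 FPKM, and *Gzmb* at 66.6 and 231.8 FPKM in flow-through and enriched means. *Klrb1c* is one of the NK-cell markers above. For *Il7r* the nearest were *Tagap* (0.22), *Nfkbiz* (0.22) and *Fam134b* (0.23), with log2 changes of 0.15, 0.18 and 0.13. The distance includes the difference between the fractions, so similar log2 changes follow from the selection. These distances also reflect the low values of flow-through library 1 that the genes share.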

How the data were processed

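RNA was measured in 8 libraries, grouped by the sample labels into 4 flow-through and 4 IL-18Rα-hi-enriched libraries. Stranded poly(A) libraries were read as 150 bp pairs. The deposited values are FPKM that the authors computed: per the labels and methods, reads were filtered on quality, mapped to mm10 with TopHat and quantified with Cufflinks 2.1.1, with corrections for multiply mapped reads and fragment bias and otherwise default options, which take no account of strand. The annotation release was not given in the sources used here. Each library was normalized alone, and FPKM keep no exact depth, so no count model was applied and the depth is an estimate.

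From these values, log2(FPKM + 1) was fitted with limma 3.58.1 in R 4.3.3 (variance trend, no block) over the 12166 genes that averaged 1 FPKM or more, with Benjamini-Hochberg adjustment over all of them and a threshold of 0.05. Fold changes on this scale understate those of low genes. Ratios were tested with an exact permutation test (two-sided, 70 arrangements, Python 3.11.15), adjusted over the 8 ratios. Scripts were checked on simulated data. Alternatives were the mouse as a block, a pseudocount of 0.1, no filter or a filter of 5 FPKM, values rescaled to a common sum, T-cell scaling, and each library left out. Leaving out both libraries of mouse 1 was added after the data were seen.

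The replicate number marks the mouse. After removal of group means, the flow-through and enriched libraries of one mouse correlated across genes at 0.66, 0.589, 0.308 and 0.471, each higher than with any other mouse, so the numbers pair the samples. Of the gene identifiers, 98.9% were in GENCODE M21, which gave coordinates in the same build.

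The 10 genes, the pathway lists and the marker lists were chosen with earlier results of these data known. Genes named were the 10 themselves, pathway genes past the threshold (at most the 3 largest changes in each direction per list) and, for *Il2ra* and *Il7r*, the 3 genes of nearest profile. Genes of these lists named without passing, *Ccnd3*, *Il21*, *Foxp3*, *Cd4*, *Ncr1*, *Mcpt8* and *Gata2* were chosen after their values were seen. A planned search of receptor proteins for a sequence signature was not run. A gene of the lists is not reported here by name, and the counts and medians include it.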

Additional observations from a re-analysis of the deposited data

Results flagged for a closer look

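In groups of 4 libraries, the lowest or highest value was compared with the gap to its nearest neighbour, for the 10 γc genes, their 8 ratios and 15 pathway genes. Of 66 groups, 7 held a value far from the others (a gap above Dixon's 95% critical share of the range), where chance gives about 3.3. Flow-through library 1 gave 4 of them: *Il21r* at 32.68 FPKM against 58.08 to 63 in the other flow-through libraries, *Stat5a* at 44.25 against 33.69 to 34.92 FPKM, *Il4ra* at 8.009% of *Il2rg* against 8.886% to 9.056%, and *Jak3* at 42.72% of *Jak1* against 52.71% to 53.95%. In that library *Stat5a* was high while the receptor genes were low. In flow-through library 3, *Il21r* was at 16.94% of *Il2rg* against 15% to 15.3%. The remaining values were small departures within tight groups: *Il9r* at 21.32 FPKM in enriched library 2 against 22.54 to 22.6 FPKM, and *Bcl2l1* at 28.85 FPKM in enriched library 3 against 27.71 to 27.82 FPKM.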

How the results depend on the processing

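*Il2ra*, *Il2rb* and *Il9r* stayed higher and past the threshold under all 16 alternatives, with log2 fold changes of 1.61 to 2.19, 0.99 to 1.45 and 1.29 to 1.75, and 3 of the 10 genes were higher in each fit. The number of lower genes went from 0 to 1 with the mouse as a replicate block, under T-cell scaling with and without that block, and without both libraries of mouse 1, and was 0 to 1 when single libraries were left out, with *Il4ra* the gene in question. Under T-cell scaling, with or without the replicate block, the signs of *Il7r* (-0.19), *Il15ra* (-0.23), *Il21r* (-0.33), *Jak1* (-0.36), *Jak3* (-0.0901), *Jak2* (-0.0426) and *Grb2* (-0.073) turned. With single libraries left out, the lowest values of *Il7r*, *Il15ra*, *Il21r* and *Jak1* were -0.0358, -0.0731, -0.18 and -0.11, each without flow-through library 1, and *Jak1* was at -0.0042 and -0.0246 without enriched library 3 and 4. Without both libraries of mouse 1, *Il15ra*, *Il21r* and *Jak1* were at -0.0909, -0.16 and -0.0857. The highest values with single libraries left out were 0.3, 0.19, 0.12 and 0.074.

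Over all genes, 1720 higher and 1664 lower genes became 2705 and 2763 with the replicate block, 500 and 1103 under T-cell scaling, and 596 and 2446 with both. With single libraries left out they ran from 1107 to 1813 and from 939 to 1780, the lowest values arising without enriched library 4 and without flow-through library 3, and enriched library 2 also lowered them (1115 and 958). Pathway genes went from 14 higher and 2 lower to 3 and 5 under T-cell scaling, 3 and 4 with the replicate block added, 19 and 4 with the block alone and 15 and 5 without both libraries of mouse 1, and ran from 7 to 15 and from 2 to 6 with single libraries left out. The cause of these shifts was not tested. Of the 237 alternative values of the 15 named pathway genes, 188 kept their direction and call, 45 kept only the direction and 4 turned.

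The 8 ratios kept their direction and their side of the threshold with 1 FPKM added to both genes. Within mice (replicate block) the differences are the same by construction, and the exact sign-flip test over 4 mice cannot go below p = 0.125. Leaving out a library turned the sign of none of the 8 ratios. For the 5 ratios whose fractions did not overlap it could not have done so, so this is no check of them. The design has 4 mice and FPKM without counts, so genes near 1 FPKM such as *Il2* carry an unknown counting error.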
